A study of Mus musculus with 36 samples.

Results

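Of the 26820 transcripts tested, 4 (0.0149%) had an adjusted p under 0.05 between Dnmt3aKO and Control hematopoietic stem cells (HSCs), and these 4 are described here in all the RNA libraries. They were chosen by that comparison, so their difference in Dnmt3aKO HSCs is a description and carries no further test. The table held 138835 transcripts in all, and each of the 4 passed the filter on low counts. They are ENSMUST00000121886.7, which was higher in Dnmt3aKO HSCs, and ENSMUST00000079237.6, ENSMUST00000169111.1 and ENSMUST00000234467.1, which were lower. The files do not pair transcripts with genes, and neither do the reference tables used here. The transcripts are therefore given by identifier, with no gene name, position, function or sequence.

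Cells came from C57BL/6 mice aged 8 weeks, and all groups, Control included, carried Cre recombinase under the Vav driver, which is active in blood-forming cells from early development. Control mice were Dnmt3a+/+ and Tet2+/+. Tet2KO mice were Tet2 fl/fl, and the Dnmt3aKO genotype is written in the labels as Dnmt3a fl/fl or +. HSCs were sorted as Lin-, cKit+, Sca1+, CD150+, CD48- cells. Restricted progenitors (RPs) were sorted for RNA as CD150-, CD48+ cells of the same Lin-, cKit+, Sca1+ compartment. Each library came from bone marrow pooled from males and females, so the spread below is between pools and not between single animals. There were 3 Control HSC, 3 Dnmt3aKO HSC, 4 Tet2KO HSC, 4 Control RP and 4 Tet2KO RP libraries, and no RNA library of Dnmt3aKO RPs was analysed here. The level of Dnmt3a or Tet2 RNA and the markers of HSCs and RPs need gene names, so the genotype and cell type labels were not checked against them.

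HSCs sit at the top of blood formation and can both renew themselves and give rise to every blood lineage, whereas restricted progenitors have lost long-term self-renewal. DNMT3A is a methyltransferase that places new methyl groups on cytosines, and TET2 is a dioxygenase that oxidises methylcytosine, a step towards its removal. Loss-of-function mutations of either gene are common in human clonal hematopoiesis, in which the progeny of 1 stem cell expand. Setting the 4 transcripts side by side in both mutants and both cell types asks which of the differences in Dnmt3aKO HSCs also occur without Tet2.

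Libraries held 3721009 to 9366421 counts. Levels are given as counts per 1000000 (CPM) of the library size after TMM scaling. The HSC libraries numbered 4 had the fewest transcripts detected in their groups. At an equal depth of 3721009 counts they held 25496 (Dnmt3aKO), 31276 (Control) and 33540 (Tet2KO) transcripts, so results that change without them are given both ways. Control HSC replicate 2, with 33584, was close to the Tet2KO one. In bulk libraries, fewer cells with a transcript and less of it per cell cannot be told apart.

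The 4 transcripts fell into 2 kinds by their levels. ENSMUST00000079237.6 and ENSMUST00000169111.1 were near 0 in Dnmt3aKO HSCs and had overlapping levels in the other 4 groups. ENSMUST00000121886.7 and ENSMUST00000234467.1 differed from Control in the same direction in Dnmt3aKO HSCs, Tet2KO HSCs and Tet2KO RPs. In the Tet2KO groups their differences missed the threshold of the quasi-likelihood test of edgeR (p-values adjusted by Benjamini-Hochberg over all transcripts tested), so the second kind rests on levels and on intervals and not on calls.

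**Figure D1:**
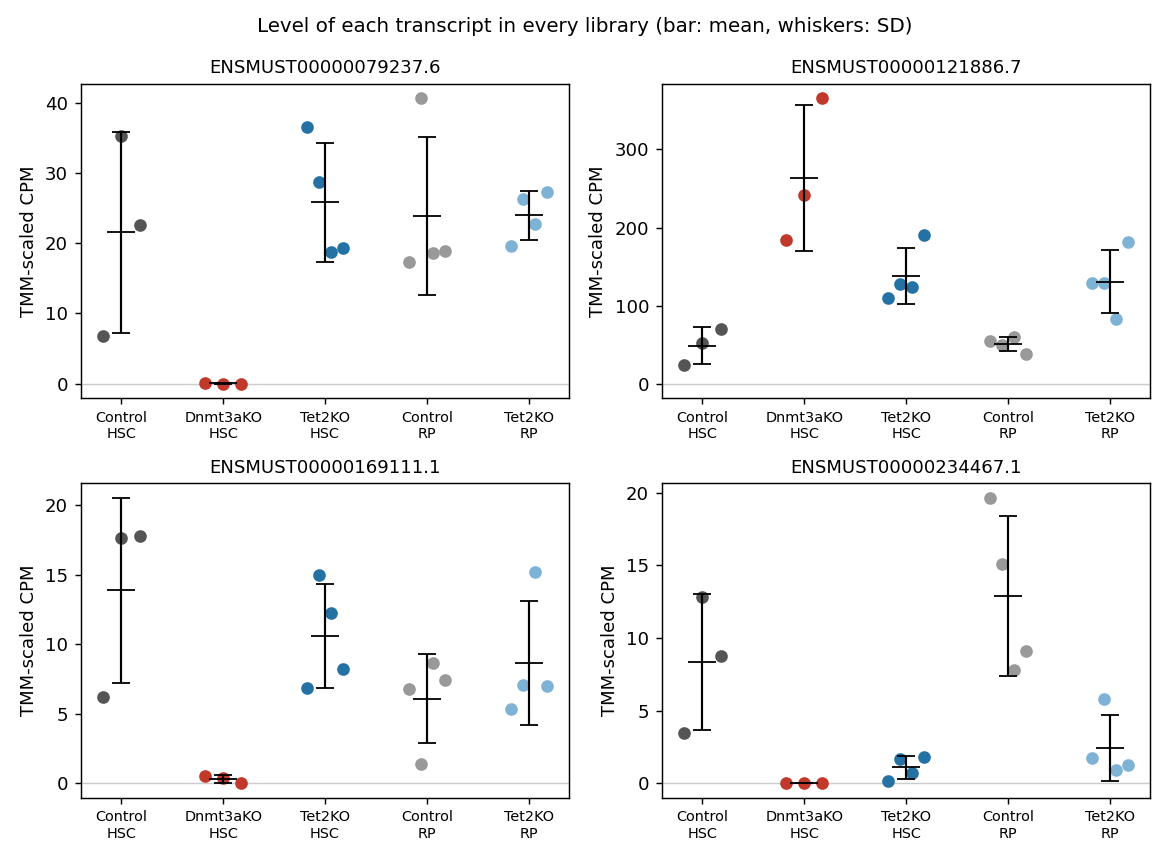
TMM-scaled CPM (vertical axis, scale set per panel) of the 4 transcripts in each of the 18 libraries, by group. Points are libraries, the bar is the group mean and the whiskers are 1 SD. The Dnmt3aKO points lie at or near 0 for 3 transcripts and between 184 and 366 for ENSMUST00000121886.7.

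ENSMUST00000079237.6 was nearly absent from Dnmt3aKO HSCs. It had 1 count in Dnmt3aKO HSC replicate 1 (0.1285 CPM) and 0 counts in replicates 2 and 4. Control HSC replicates 2, 3 and 4 were at 6.77, 35.4 and 22.6 CPM. The Dnmt3aKO and Control libraries did not overlap, as for each of the 4 (7.96% of the transcripts tested), and Control replicate 2 was the lowest of all libraries outside Dnmt3aKO HSCs. The mean in Control HSCs was 21.6 ± 14.3 CPM (SD, n = 3), a ratio of 379 to the level given by the 1 Dnmt3aKO count (95% counting interval 68.0 to 14970). This interval covers counting error only.

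In the other groups ENSMUST00000079237.6 was an expressed transcript of moderate level. Tet2KO HSC replicates 1 to 4 were at 36.6, 28.7, 18.8 and 19.3 CPM. Control RP libraries, whose columns could be matched to the group only and are lettered a to d, were at 17.3, 40.7, 18.6 and 19.0 CPM. Tet2KO RP libraries were at 19.6, 26.3, 22.7 and 27.3 CPM. All 15 libraries outside Dnmt3aKO HSCs lay between 6.77 and 40.7 CPM, above 61.3% to 86.4% of the transcripts tested in the same library.

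The mean level of ENSMUST00000079237.6 was 25.9 ± 8.48 CPM in Tet2KO HSCs, 24.0 ± 3.50 in Tet2KO RPs and 23.9 ± 11.2 in Control RPs (SD, n = 4 each), followed by Control HSCs. Neighbours in this order overlapped. The log2 fold change of Tet2KO against Control was 0.26 in HSCs (95% interval -0.72 to 1.24, adjusted p = 0.94, edgeR) and 0.01 in RPs (-0.90 to 0.92, adjusted p = 1, edgeR). The intervals leave room for changes of nearly 2-fold in either direction in RPs and for an increase of more than 2-fold in HSCs.

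ENSMUST00000079237.6 also differed between the mutants. Against Tet2KO HSCs, the Dnmt3aKO level gave a ratio of 454.4 in favour of Tet2KO (95% counting interval 81.6 to 17950; adjusted p = 1.87e-05, edgeR). This comparison uses the same Dnmt3aKO libraries as the one that chose the transcript. It kept its call in all 14 alternatives run (adjusted p from 7.65e-20 to 0.0441). Against Control HSCs the adjusted p was 2.24e-04, and 10 of 13 alternatives kept it under 0.05. It was 0.746 when only the 6 libraries compared were fitted, 0.0583 when only HSC libraries were, and 0.363 when those carried the replicate number as a block.

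ENSMUST00000169111.1 had the same arrangement at a lower level. Dnmt3aKO HSC replicates 1, 2 and 4 had 4, 2 and 0 counts, or 0.514, 0.425 and 0 CPM. Control HSC replicates 2, 3 and 4 were at 6.23, 17.7 and 17.8 CPM. The lowest Control HSC library was again replicate 2, and it lay above every Dnmt3aKO library. The group means were 13.9 ± 6.65 and 0.313 ± 0.275 CPM (SD, n = 3 each), with a log2 fold change of -5.32 (SE 0.84).

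Outside Dnmt3aKO HSCs, ENSMUST00000169111.1 was at 6.88, 15.0, 12.3 and 8.26 CPM in Tet2KO HSC replicates 1 to 4. Control RP libraries a to d were at 6.76, 1.42, 8.67 and 7.46 CPM, and Tet2KO RP libraries at 5.35, 7.08, 15.2 and 6.99 CPM. Control RP b, with 5 counts, was the lowest of these and still above the highest Dnmt3aKO library. In order of the mean, Control HSCs were followed by Tet2KO HSCs (10.6 ± 3.72 CPM), Tet2KO RPs (8.66 ± 4.44) and Control RPs (6.08 ± 3.20; SD, n = 4 each), and neighbours overlapped.

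The log2 fold change of ENSMUST00000169111.1 in Tet2KO against Control was -0.39 in HSCs (95% interval -1.65 to 0.88, adjusted p = 0.925, edgeR) and 0.50 in RPs (-0.70 to 1.70, adjusted p = 1, edgeR). These intervals are wide and do not show that the level was unchanged in Tet2KO cells. Dnmt3aKO HSCs were lower than Tet2KO HSCs by edgeR, with a difference of -4.93 on the log2 scale (SE 0.82, adjusted p = 0.0178). This comparison reuses the Dnmt3aKO libraries whose low values chose the transcript, so it is not independent of that choice. That call was kept in 6 of 14 alternatives, with adjusted p from 1.85e-06 to 0.372. It was lost, for example, without any 1 of the 3 Dnmt3aKO libraries (0.0618 to 0.0731) and, at 0.0505, without the 3 HSC libraries numbered 4. The direction was the same in all 14.

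In the comparison of Dnmt3aKO with Tet2KO HSCs, 0.138% of the transcripts tested were called, and of the 4 transcripts ENSMUST00000079237.6 and ENSMUST00000169111.1 were. All 4 had an unadjusted p under 0.05 (11% of all), and the libraries of 3 did not overlap (7.57% of all). DESeq2, which called 2% of the transcripts to which it gave an adjusted p, called ENSMUST00000234467.1 in addition (adjusted p = 0.0251). The contrast shares the Dnmt3aKO libraries with the choice of the transcripts, so this count is not independent of it.

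ENSMUST00000121886.7 was the 1 transcript called higher in Dnmt3aKO HSCs and the most abundant of the 4 in counts. Control HSC replicates 2, 3 and 4 were at 23.8, 51.6 and 70.6 CPM, and Dnmt3aKO HSC replicates 1, 2 and 4 at 183.7, 241.3 and 365.9 CPM. Every Dnmt3aKO library lay above every Control HSC library, and replicate 4 was the highest of both groups. Scaled by its library total alone, replicate 4 was at 269.9 CPM and still the highest. The means were 48.7 ± 23.5 and 263.6 ± 93.1 CPM (SD, n = 3 each), with a log2 fold change of 2.44 (SE 0.38).

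In Tet2KO HSC replicates 1 to 4, ENSMUST00000121886.7 was at 110.3, 127.6, 123.6 and 190.6 CPM, again above all Control HSC libraries. Control RP libraries a to d were at 54.7, 49.8, 59.2 and 38.7 CPM. Tet2KO RP libraries were at 129.6, 128.8, 82.8 and 181.5 CPM. The Tet2KO RP libraries therefore lay above all Control RP libraries, with library c the lowest of them. All 11 mutant libraries were above all 7 Control libraries, which held for 14 of the transcripts tested (0.0522%). The position of Dnmt3aKO against Control HSCs in that arrangement was fixed by the choice of the transcript. The Control HSC libraries, against which the Tet2KO libraries are also set, are those of the choice. This share is therefore not independent of the choice.

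The levels of ENSMUST00000121886.7 formed 3 steps. Dnmt3aKO HSCs were highest, Tet2KO HSCs (138.0 ± 35.8 CPM) and Tet2KO RPs (130.7 ± 40.3) lay close together, and Control RPs (50.6 ± 8.83; SD, n = 4 each) and Control HSCs were lowest. Among neighbours in this order, only Tet2KO RPs and Control RPs did not overlap. The highest Tet2KO HSC library exceeded the lowest Dnmt3aKO library. The log2 fold change of Dnmt3aKO over Tet2KO HSCs was 0.93 (95% interval 0.23 to 1.63, unadjusted p = 0.0115, adjusted p = 0.293, edgeR), so the upper step did not pass the test.

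The comparison of Tet2KO with Control RPs is the only difference between genotypes here whose groups hold no library of the choice. Its p-values and intervals are not free of the choice, because the fit estimated the spread from all 18 libraries. Of the alternatives, only the fit of the 8 RP libraries used none of the libraries of the choice. For ENSMUST00000121886.7 the fit of all libraries gave a log2 fold change of 1.37 (SE 0.32, 95% interval 0.70 to 2.04), higher in 4 of 4 libraries. The unadjusted p was 3.96e-04 and the adjusted p was 0.153 (edgeR), which missed the threshold. Over 13 alternatives the fold change stayed between 1.17 and 1.53, and the adjusted p ranged from 0.00359 to 0.538. It passed in 4 of them, at 0.0264 with only the 8 RP libraries, 0.0294 without the 3 HSC libraries numbered 4 (an alternative chosen after seeing the data), 0.00359 without the filter on low counts and 0.0047 in DESeq2.

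In HSCs, where the Control libraries are those of the choice, the log2 fold change of ENSMUST00000121886.7 in Tet2KO was 1.5 (95% interval 0.76 to 2.24, adjusted p = 0.0979, edgeR). It passed in 2 of 14 alternatives, DESeq2 (adjusted p = 0.00318) and no filter on low counts (0.00191). The difference between the Tet2KO effects in RPs and HSCs was -0.13 (-1.10 to 0.83, adjusted p = 1, edgeR). Between cell types the transcript differed little, with a log2 fold change of RPs over HSCs of 0.06 in Control (-0.66 to 0.77) and -0.08 in Tet2KO (-0.73 to 0.58).

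ENSMUST00000234467.1 showed the opposite arrangement at a low level. It had 0 counts in all 3 Dnmt3aKO HSC libraries, which allows a level of up to 0.171 CPM over the group at 3 counts. Control HSC replicates 2, 3 and 4 were at 3.48, 12.8 and 8.79 CPM, a mean of 8.37 ± 4.69 (SD, n = 3). All Control HSC libraries were thus above all Dnmt3aKO libraries, and their mean was 49 times that limit.

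In Tet2KO HSC replicates 1 to 4, ENSMUST00000234467.1 had 1, 14, 8 and 9 counts, or 0.168, 1.69, 0.738 and 1.81 CPM. Control RP libraries a to d were at 19.7, 15.1, 7.83 and 9.10 CPM. Tet2KO RP libraries were at 1.79, 5.78, 0.908 and 1.30 CPM. The Tet2KO libraries lay below all Control libraries of the same cell type, and Tet2KO RP b came closest to Control. Mutant libraries below all Control libraries within each cell type were found for 10 of the transcripts tested (0.0373%). This condition is looser than the one used for ENSMUST00000121886.7, which was set across cell types, so the shares are not comparable. The position of Dnmt3aKO against Control HSCs was again fixed by the choice, and the Tet2KO HSC part uses the same Control libraries.

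By the mean, Control RPs were highest for ENSMUST00000234467.1 (12.9 ± 5.49 CPM, SD, n = 4), followed by Control HSCs, Tet2KO RPs (2.44 ± 2.25, n = 4), Tet2KO HSCs (1.10 ± 0.788, n = 4) and Dnmt3aKO HSCs. Control HSCs and Tet2KO RPs overlapped, as did the Control groups and the Tet2KO groups among themselves. The Tet2KO HSC libraries were all above the Dnmt3aKO ones, but the lowest of them held a single count. The Tet2KO HSC mean was 6.46 times the Dnmt3aKO limit, and the comparison of these mutants had an adjusted p of 0.145 (edgeR).

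In RPs the log2 fold change of ENSMUST00000234467.1 in Tet2KO against Control was -2.38 (SE 0.71, 95% interval -3.89 to -0.88), lower in 4 of 4 libraries. The unadjusted p was 0.00379 and the adjusted p 0.594 (edgeR), and in 13 alternatives the adjusted p ranged from 0.107 to 1, with no call. With only the RP libraries, which used none of the choice, the fold change was -2.36 (unadjusted p = 9.13e-04, adjusted p = 0.128, edgeR). Without Tet2KO RP b the fold change was -3.26 (adjusted p = 0.262, edgeR). In HSCs, with the Control libraries of the choice, the fold change was -2.91 (-4.52 to -1.30, adjusted p = 0.148, edgeR). It passed in 2 of 14 alternatives, DESeq2 (adjusted p = 0.0126) and no filter on low counts (0.0242, edgeR). Over the 14 the adjusted p ranged from 0.0126 to 0.749. The difference between the Tet2KO effects in RPs and HSCs was 0.53 (-1.57 to 2.62, adjusted p = 1, edgeR).

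**Figure D2:**
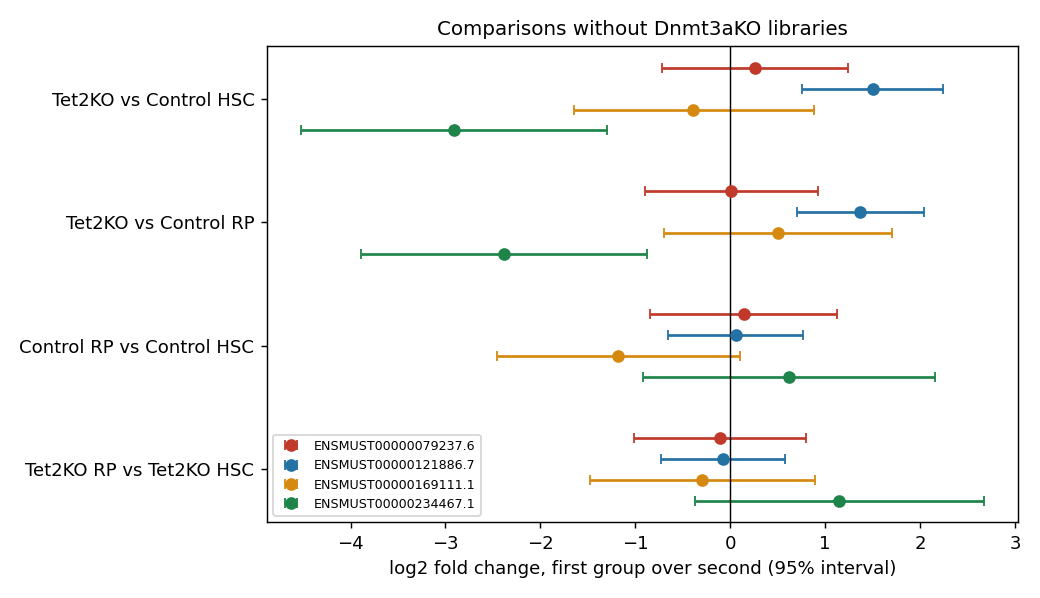
Log2 fold changes (horizontal axis) with 95% intervals for the 4 transcripts in the comparisons without Dnmt3aKO libraries, one row of 4 points per comparison. The intervals of ENSMUST00000121886.7 lie above 0 and those of ENSMUST00000234467.1 below 0 in both Tet2KO comparisons, before adjustment over all transcripts, and all other intervals include 0.

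Taking the 4 transcripts in the comparison of Tet2KO with Control RPs, edgeR called 0, against 0.134% of the transcripts tested. An unadjusted p under 0.05 was reached by 2 of the 4, against 3.82% of the transcripts tested. DESeq2 called 1 of the 4, against 0.437% of the transcripts to which it gave an adjusted p. Their libraries did not overlap for the same 2, ENSMUST00000121886.7 and ENSMUST00000234467.1, against 4.62%. In HSCs edgeR likewise called 0 of the 4 between Tet2KO and Control (0.198% of all), and 2 had an unadjusted p under 0.05 (11.2% of all). DESeq2 called 2 of the 4, against 2.51% of the transcripts to which it gave an adjusted p. The libraries of 2 did not overlap there (8% of all). The HSC comparison shares its Control libraries with the choice. The p-values of the RP comparison share libraries with the choice through the estimate of spread, so these counts are not independent of it.

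None of the 4 was called between RPs and HSCs by edgeR or DESeq2, in Control cells or in Tet2KO cells. In these comparisons edgeR called 1.9% and 1.81% of the transcripts tested. DESeq2 called 5.71% and 3.99% of those to which it gave an adjusted p. None of the 4 had an unadjusted p under 0.05 in edgeR in either comparison, against 14.8% and 10.3% of the transcripts tested. The nearest was ENSMUST00000169111.1 in Control cells, with a log2 fold change of RPs over HSCs of -1.18 (95% interval -2.46 to 0.10, unadjusted p = 0.0679, adjusted p = 0.387, edgeR). The intervals do not show that levels were equal in the 2 cell types. For ENSMUST00000234467.1 in Tet2KO cells the interval reached from -0.37 to 2.67. The interaction was called for 0 of the 4 by edgeR and by DESeq2, with 0 at an unadjusted p under 0.05 in edgeR. Of the transcripts tested, edgeR called 0%, and 5.35% had an unadjusted p under 0.05. DESeq2 called 0.0516% of those to which it gave an adjusted p.

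The threshold that chose the transcripts ran close to 3 of them. The adjusted p in Dnmt3aKO against Control HSCs was 0.0429 for ENSMUST00000121886.7 and for ENSMUST00000169111.1 and 0.0464 for ENSMUST00000234467.1 (edgeR). The first transcript outside, ENSMUST00000222348.2, had an adjusted p of 0.0541 (edgeR). It had 0 counts in the Dnmt3aKO libraries and was at 3.19 ± 1.94 CPM (SD, n = 3) in Control HSCs, with means of 1.17 in Tet2KO HSCs, 2.42 in Control RPs and 2.48 in Tet2KO RPs.

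The 4 calls depended on the libraries and on the fit. When only the 6 libraries compared were fitted, edgeR called 0 transcripts, and the unadjusted p of the 4 ranged from 9.77e-05 to 8.88e-04. It also called 0 from the HSC libraries, both without and with the replicate number as a block. DESeq2 called 174 from all libraries (0.72% of the transcripts to which it gave an adjusted p), the 4 included. Leaving out any 1 of the 6 libraries kept ENSMUST00000079237.6 under the threshold (adjusted p from 1.41e-05 to 0.00583). The call of ENSMUST00000121886.7 was lost without Control HSC replicates 2 or 3 or Dnmt3aKO HSC replicates 2 or 4. The calls of ENSMUST00000169111.1 and ENSMUST00000234467.1 were kept only without Control HSC replicate 2 (adjusted p = 0.0269 and 0.0373) and lost in the other 5 cases. Without the 3 HSC libraries numbered 4, ENSMUST00000079237.6 (adjusted p = 0.0141) and ENSMUST00000121886.7 (0.0375) were called and the other two, both at 0.157, were not.

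**Figure D3:**
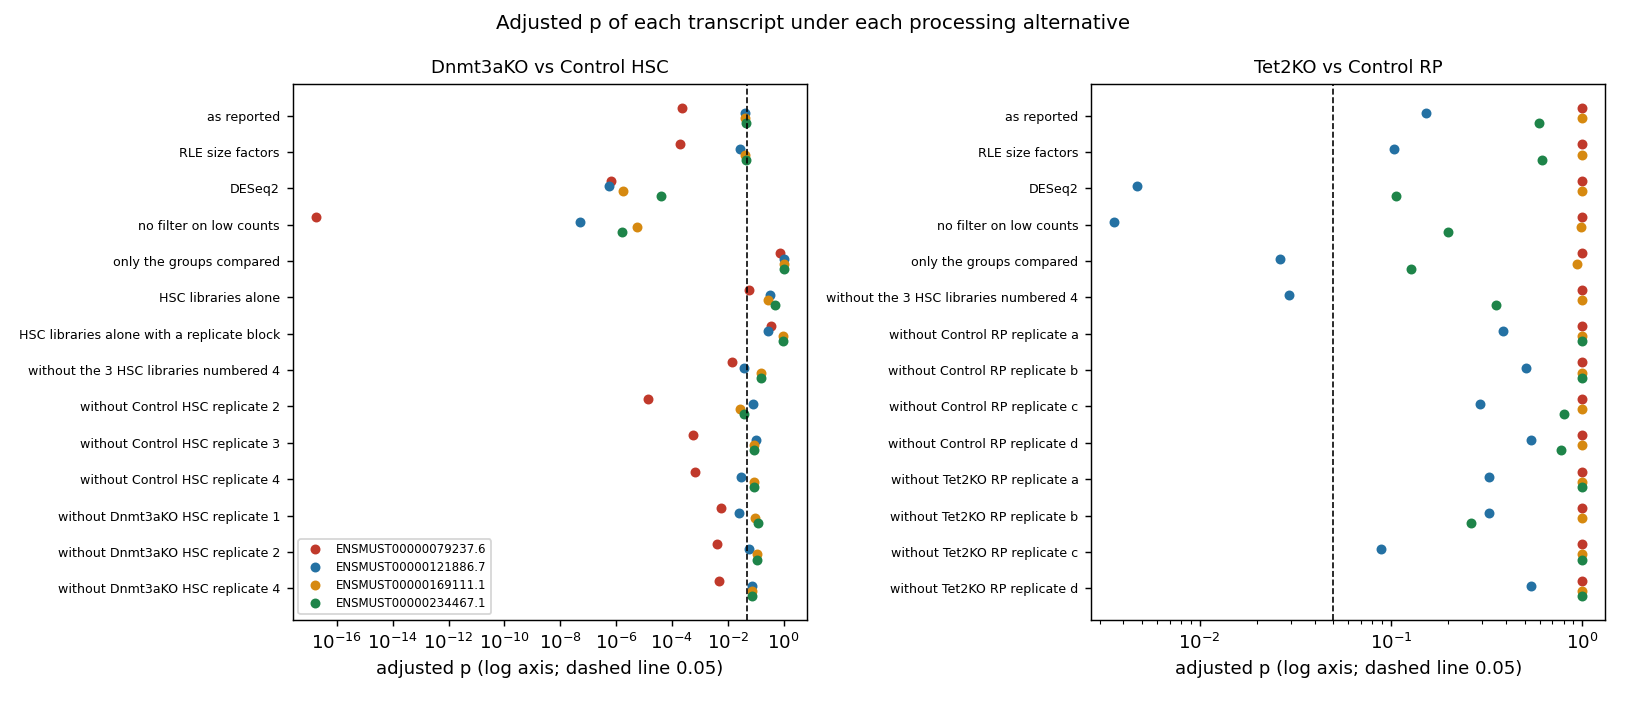
Adjusted p (horizontal log axis, dashed line at 0.05) of the 4 transcripts under each alternative, for Dnmt3aKO against Control HSCs (left) and Tet2KO against Control RPs (right). On the left ENSMUST00000079237.6 passes in 10 of 13 alternatives. On the right ENSMUST00000121886.7 passes in 4 of 13 and the other transcripts in none.

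The transcripts whose levels over the 18 libraries were most like those of each of the 4 were sought by the Pearson correlation of log2 CPM (prior count 2). This is a description, since the points share libraries, groups and depth. For ENSMUST00000079237.6 the closest was ENSMUST00000084451.5 (r = 0.916), at 0.114 ± 0.107 CPM in Dnmt3aKO HSCs and at means of 2.19 to 3.24 CPM in the other groups. For ENSMUST00000169111.1 it was ENSMUST00000079237.6 itself (r = 0.848). Both were chosen for low Dnmt3aKO levels. Over the 15 libraries outside Dnmt3aKO HSCs the correlations of these pairs were 0.235 and -0.067, and after subtracting group means from all 18 they were 0.346 and 0.03.

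For ENSMUST00000121886.7 the closest was ENSMUST00000120250.1 (r = 0.842). Its Control HSC level was 0.313 ± 0.248 CPM, with 0.420 ± 0.256 in Control RPs, against 2.58 ± 0.328 in Dnmt3aKO HSCs, 1.5 ± 0.771 in Tet2KO HSCs and 3.21 ± 0.600 in Tet2KO RPs. It too was higher on average in every mutant group, but its mean in Tet2KO RPs was above that in Dnmt3aKO HSCs. For ENSMUST00000234467.1 the closest was ENSMUST00000145213.7 (r = 0.865), at 2.53 ± 2.85 CPM in Control HSCs and 2.78 ± 0.596 in Control RPs, and at 0.0857 ± 0.148 in Dnmt3aKO HSCs, 0.577 ± 0.518 in Tet2KO HSCs and 1.12 ± 0.513 in Tet2KO RPs. Without the Dnmt3aKO libraries the correlations of these pairs were 0.844 and 0.787, and after subtracting group means 0.596 and 0.499. Ranking by Spearman correlation put another transcript first for each of the 4.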

How the data were processed

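The authors deposited raw read counts per Ensembl transcript (GENCODE mouse M20, by the table's name). Per the submitters' processing notes, the tools include STAR 2.0.4, HTSeq 0.8.0, edgeR 3.9 and featureCounts, and the build is mm10. Which tool counted, its strand setting and how it handled shared exons is not given in the sources used here, so counts of overlapping, antisense or near-identical transcripts are uncertain. Of 36 columns of counts, 18 matched RNA libraries of the study and 18 matched no sample and were not used. HSC columns matched titles by genotype and number, and RP columns only by group. The 18 ATAC-seq samples were not analysed here.

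Transcripts were filtered with filterByExpr by group (minimum count 10, minimum total 15), leaving 26820 with 98.92% of counts, and scaled with TMM. All 18 libraries entered 1 quasi-likelihood fit (edgeR 4.0.16, R 4.3.3) whose only term was the group. A standard error is the log2 fold change over the root of the F statistic. Alternatives were RLE factors, DESeq2 1.42.0, no filter, smaller fits, a replicate block and leaving out libraries. The fit was tested on simulated data. Groups at 0 counts were set to a floor of 3 counts over the group. Intervals of ratios are exact 95% Poisson intervals. The transcripts, tests and alternatives were chosen with earlier results of these data known. Checks that need gene names were not run.

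The named transcripts are the 4 listed, the first one outside the threshold, and the single transcript most correlated with each of the 4.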

Additional observations from a re-analysis of the deposited data

Results flagged for a closer look

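For ENSMUST00000079237.6 in Control RPs, 1 library lay far from the other three. Control RP b was at 40.7 CPM and the others at 17.3 to 19.0 CPM, so the gap took 0.93 of the range of the group. Of 12 sets of 4 libraries examined this was the only one so marked, and chance marks about 1 in 20. Without that library the log2 fold change of Tet2KO against Control RPs was 0.39 (adjusted p = 1, edgeR), against 0.01 with it.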

How the results depend on the processing

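The number of called transcripts depended on the fit more than the direction of the 4 did. Against 4 (Dnmt3aKO against Control HSCs), 53 (Tet2KO against Control HSCs), 36 (Tet2KO against Control RPs), 37 (Dnmt3aKO against Tet2KO HSCs), 509 and 485 (RPs against HSCs in Control and Tet2KO) and 0 (interaction), DESeq2 called 174, 673, 117, 536, 1500, 1069 and 13. Without the filter on low counts edgeR called 291, 1001, 241, 752, 1355, 951 and 241. With only the groups compared the first 4 counts were 0, 21, 78 and 10. With the HSC libraries alone the 3 HSC counts were 0, 15 and 11, and with a replicate block on these 0, 10 and 8. Without the 3 HSC libraries numbered 4, Tet2KO against Control gave 96 in HSCs and 69 in RPs, the latter an alternative chosen after seeing the data. Dnmt3aKO against Control HSCs then gave 6, of which 2 were among the 4 transcripts, and Dnmt3aKO against Tet2KO HSCs gave 35. RPs against HSCs gave 716 in Control and 638 in Tet2KO. Leaving out 1 library at a time gave 1 to 5, 18 to 106, 27 to 42, 9 to 63, 264 to 493, 296 to 409 and, for the interaction, 0 calls throughout, in the same order. RLE factors kept all 7 counts within 1.5 times.

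Same-numbered HSC libraries deviated together most for number 4 (correlations 0.2 to 0.251), with 0.039 to 0.099 for numbers 1 to 3. Among Tet2KO HSCs, library 1 was still the closest to Dnmt3aKO HSC 1 (0.099). The same-numbered library was also closest in the number 4 pairs, and in no pair numbered 2 or 3. The numbers were not taken to pair the samples in the main fit, and the block was run as an alternative. Of the 4 transcripts, the block kept the call of ENSMUST00000079237.6 between Dnmt3aKO and Tet2KO HSCs (adjusted p = 0.0441) and lost that of ENSMUST00000169111.1 (0.372). No paired fit was made for RPs, whose columns match no numbered title.

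Signs changed only for fold changes that were not called and whose 95% intervals from all libraries included 0. For ENSMUST00000079237.6 the value was -0.02 in Tet2KO against Control RPs without the filter, and leaving out 1 library gave -0.12 to 0.39 there, -0.17 to 0.77 in HSCs, -0.29 to 0.65 and -0.24 to 0.11 for RPs against HSCs in Control and Tet2KO, and -0.77 to 0.18 for the interaction. For ENSMUST00000121886.7, RPs against HSCs in Tet2KO gave 0.09 without the libraries numbered 4 and -0.28 to 0.12 leaving out 1, with -0.27 to 0.42 in Control and -0.50 to 0.19 for the interaction. For ENSMUST00000234467.1 the interaction, 0.53 with an SE of 0.99 from all libraries, ranged from -0.35 to 0.89. The order of the 5 group means was the same under all 3 scalings for each transcript.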

Other observations

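Near absence from Dnmt3aKO HSCs with counts everywhere else was not limited to the 2 transcripts described. With limits set after seeing the data, 10 of the transcripts tested had at most 6 counts over the 3 Dnmt3aKO HSC libraries and at least 5 counts in each of the other 15 libraries. ENSMUST00000079237.6 and ENSMUST00000169111.1 were among them, and so was ENSMUST00000084451.5, the transcript closest to the former. Both limits equal values of ENSMUST00000169111.1 itself, with 6 counts over Dnmt3aKO HSCs and 5 in Control RP b. Its place in the list was therefore fixed, and the limits favour Dnmt3aKO HSCs over the other groups. The same limits found 4 transcripts for Control HSCs, 0 for Tet2KO HSCs, 1 for Control RPs and 0 for Tet2KO RPs. These groups hold 3 or 4 libraries, so the same limit is stricter per library in groups of 4, and the counts are not a test. Dnmt3aKO HSCs also contain the library with the fewest transcripts at equal depth (25496), and its part in this count was not tested.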
